A study of Mus musculus with 9 samples.

Results

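The lysosomal genes examined here were the cathepsins, the subunits of the V-ATPase proton pump and 29 further named lysosomal genes. They were taken from the table of raw read counts by symbol, with every symbol made of Cts and 1 letter, every symbol beginning with Atp6v0 or Atp6v1, and the named genes, and with the row of most reads kept for each symbol. Of the 53465 genes in the table, 69 fitted this description, and 57 of them had more than 1 CPM (counts scaled to the library total) in at least 3 libraries, as did 11950 genes in all. By role the 57 genes were 14 proteases, 7 glycosidases, 2 sulfatases, 5 lipid and thioester hydrolases, 2 acid phosphatases, 4 activators and lumenal carriers, 7 membrane proteins and 16 V-ATPase subunits. The 12 others were all cathepsins or V-ATPase subunits. Ctsj, Ctsm, Ctsq, Ctsr and Atp6v1g3 were at 0 reads in every library, and Ctsg, Ctsw, Atp6v0a4, Atp6v0e2, Atp6v1b1, Atp6v1c2 and Atp6v1e2 were at 24 reads or fewer in each.

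RNA-Seq was performed on bone marrow-derived macrophages (BMDMs) of wild-type male mice, given as C57BL/6 in the labels and C57bl6/J in the methods, grown with CSF1, the growth factor of macrophages, at 50 ng/ml. Cells were left untreated (UNX) or were given medium conditioned by adventitial fibroblasts, the connective tissue cells of the outer wall of the distal pulmonary artery, from control calves (CO-CM) or from calves made pulmonary hypertensive by 2 weeks of hypobaric hypoxia (PH-CM), with 3 libraries per group and 9 in all. The comparison asks how fibroblasts of the healthy and of the diseased vessel wall act on macrophages. Both media were pools from 5 fibroblast populations and the experiment was done 3 times, so a replicate stands for a culture of macrophages rather than a calf, the medium came from another species, and UNX libraries received no conditioned medium of any kind. The treatment lasted 18 h by the methods and 16 h or 24 h by the labels, and the glutamine of the growth medium is given as 2 mM and as 5 mM. Libraries held 62017933 to 84314201 counted reads. All 8 macrophage markers examined passed the CPM minimum, with Lyz2 at a mean of 7240.1 CPM in UNX. None of 8 mast cell and basophil markers, none of 8 B and T cell markers and 1 of 10 neutrophil markers did. Of the other lists, 3 of 7 osteoclast markers and 7 of 9 fibroblast markers passed.

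Lysosomes are acidic organelles in which macrophages break down what they engulf and what they recycle of their own. Cathepsins and other proteases cut proteins there, glycosidases and sulfatases strip glycoproteins, glycolipids and glycosaminoglycans, and lipases free fatty acids and cholesterol. The acid these enzymes need is made by the V-ATPase, in which the V1 sector hydrolyses ATP on the cytosolic side and turns the V0 sector, which moves protons through the membrane. Many lysosomal genes carry the palindrome TCACGTGA near their start, the core of the CLEAR motif, which adds a G before and a C after it, a sequence read by TFEB, TFE3 and MITF, transcription factors of lysosome formation.

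The promoters were searched for this palindrome because it is a sequence that lysosomal genes are known to share. A higher share among the 57 genes than among all genes could thus be foreseen, and the shares are given only as a description. RefSeq windows of GRCm38.p6, from 250 bases before to 50 bases after a gene's start, were found for 47 of the 57 genes. The E-box CACGTG, which lies inside TCACGTGA and reads the same on both strands, was present in the windows of 17 genes (36.2%), against 12.1% of the 9021 matched genes among all tested and 8.09% of all 27025 genes with a window. TCACGTGA stood in 8 genes (17.0%), against 2.29% of matched tested genes and 1.12% of all genes. The full CLEAR motif, which contains both shorter ones, stood in 1 gene (2.13%), against 0.876% of matched tested genes. The 8 genes were the proteases Ctsd and Ctsa, the glycosidase gene Gla, the V-ATPase genes Atp6v1a, Atp6v0d1 and Atp6v0e, and the membrane protein genes Mcoln1 and Cln3, and Ctsa and Gla each held it at 2 places. They are printed as 30 bases of the gene's strand, 5′ to 3′, with the motif in capitals.
Ctsd (chr7:142387908-142387937, minus strand): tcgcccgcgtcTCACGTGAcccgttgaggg
Ctsa (chr2:164833749-164833778, plus strand): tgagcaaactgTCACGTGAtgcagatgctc
Ctsa (chr2:164833766-164833795, plus strand): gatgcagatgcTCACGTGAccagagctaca
Gla (chrX:134601215-134601244, minus strand): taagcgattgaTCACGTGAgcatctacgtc
Gla (chrX:134601182-134601211, minus strand): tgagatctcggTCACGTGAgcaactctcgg
Atp6v1a (chr16:44139373-44139402, minus strand): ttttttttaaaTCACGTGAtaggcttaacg
Atp6v0d1 (chr8:105566050-105566079, minus strand): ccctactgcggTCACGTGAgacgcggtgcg
Atp6v0e (chr17:26676387-26676416, plus strand): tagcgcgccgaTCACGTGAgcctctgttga
Mcoln1 (chr8:3500462-3500491, plus strand): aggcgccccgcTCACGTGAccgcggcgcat
Cln3 (chr7:126583340-126583369, minus strand): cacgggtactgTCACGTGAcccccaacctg
By GENCODE annotation of GRCm38, the sites of Ctsd, Ctsa, Atp6v0e, Mcoln1 and Cln3 lay in an exon of the gene itself outside any coding sequence, that of Atp6v1a lay in an intron of the gene, those of Gla in a noncoding part of an exon of the neighbouring gene Hnrnph2, and that of Atp6v0d1 in no annotated gene. A match of letters is a description and shows no binding.

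The 57 genes together took a larger part of the counted reads under both media. They held 4.65, 5.33 and 5.21% of the reads of the UNX libraries, 8.68, 8.85 and 8.65% under CO-CM and 7.40, 7.73 and 7.75% under PH-CM, so the groups did not overlap. Ctsb, a cysteine protease, was the gene with most reads in every UNX library. Summed after TMM normalization, which scales libraries for differences in composition, the genes stood 1.81 times as high under CO-CM and 1.57 times as high under PH-CM as in UNX. Without Ctsb these ratios were 1.89 and 1.66. Psap, with larger log2 fold changes (1.56 and 1.13) than Ctsb (0.66 and 0.40), stays in them, so they do not show how far a single gene carries the sum. The proteases stood 1.76 times as high under CO-CM and 1.59 times under PH-CM, the glycosidases 1.73 and 1.66 times, and the V-ATPase genes 1.39 and 1.15 times. Proteases and glycosidases were thus nearer to each other than to the pump in both media. CPM of single genes are given after TMM normalization throughout, whereas the CPM minimum and the summed CPM of marker lists use the library total alone.

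**Figure D1:**
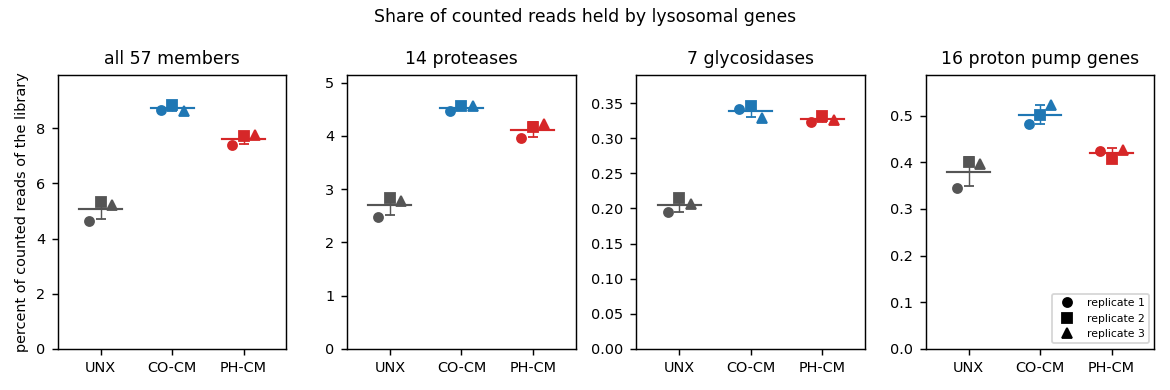
Percent of the counted reads of each library held by the 57 genes, the 14 proteases, the 7 glycosidases and the 16 V-ATPase genes, with a point per library, a line at the group mean and bars of 1 SD (n = 3). All 4 sums lie higher in every library of either medium than in every UNX library, and the V-ATPase genes differ least, at 0.344 to 0.401% in UNX, 0.481 to 0.523% in CO-CM and 0.406 to 0.427% in PH-CM.

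Each gene was tested in an edgeR quasi-likelihood fit over all 11950 genes, and called higher or lower where the Benjamini-Hochberg false discovery rate (FDR) did not exceed 0.05 and levels differed at least 1.2-fold. Against UNX, 49 of the 57 genes were called higher under CO-CM, 1 was called lower and 7 were not called, where 57.0% of all tested genes were called, 28.0% higher and 28.9% lower. Under PH-CM, 41 were called higher, 4 lower and 12 not, where 63.0% of all tested genes were called, 31.3% higher and 31.7% lower. Between the media, 4 genes were called higher and 12 lower under PH-CM than under CO-CM and 41 were not called, where 27.1% of all tested genes were called, 12.2% higher and 15.0% lower. The 3 libraries of one group all lay on one side of those of the other in 54 of the 57 genes for CO-CM against UNX (72.0% of all tested genes), in 53 for PH-CM against UNX (77.7%) and in 38 between the media (50.2%). The share called higher against UNX was thus well above that of all genes, and between the media the share called was near it. These shares of all genes also stand beside the counts by role and by marker list below. Of the 8 genes with TCACGTGA in their windows, 8 were called higher under CO-CM and 6 under PH-CM, Atp6v0d1 and Atp6v0e being the other 2, which is set beside the 49 and 41 of all 57 and was not tested as a difference.

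The median log2 fold change of the 57 genes was 0.59 under CO-CM and 0.56 under PH-CM, against medians of all genes near 0. Both comparisons use the same UNX libraries, so their values are set side by side and are not independent. Of the genes called, the largest FDR of this edgeR test was 0.00376 for CO-CM against UNX (Gm2a), 0.0305 for PH-CM against UNX (Atp6v0d2) and 0.0172 between the media (Ctsh). With 3 libraries against 3, an exact permutation test of a single gene could not go below p = 0.1, so the spread shared across genes carries the calls. In bulk RNA a higher level in each cell and a larger share of cells with the gene cannot be told apart.

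**Figure D2:**
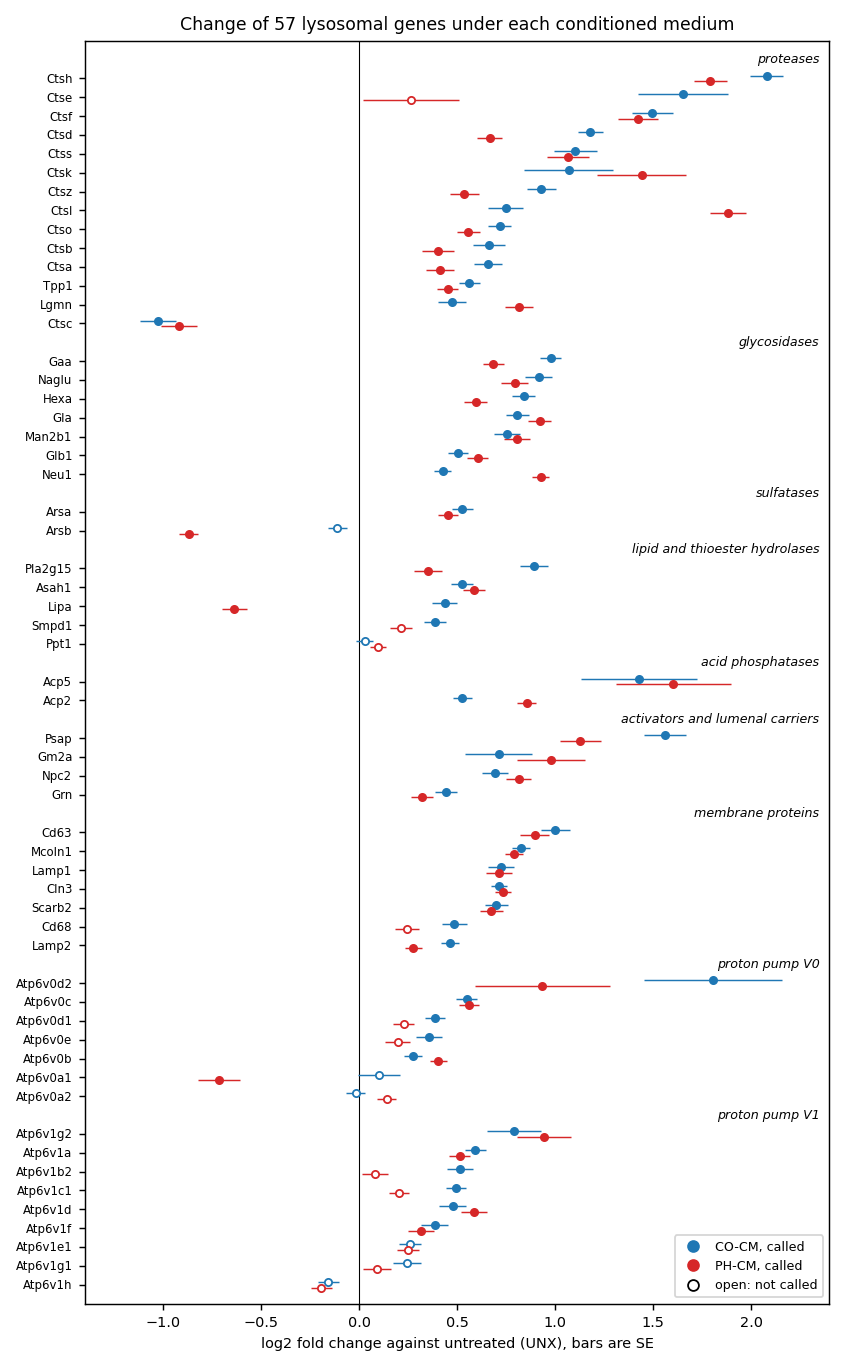
Log2 fold change against UNX of the 57 genes, ordered by role and, within a role, by their change under CO-CM, with bars of 1 SE, filled points for called genes and open points for genes not called. Nearly all points lie right of 0 under both media, Ctsc lies left of 0 under both, Arsb and Atp6v0a1 are called left of 0 under PH-CM and not called under CO-CM, and Lipa is called left of 0 under PH-CM and right of 0 under CO-CM.

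In the libraries numbered 1 the genes were often lowest of their group. Of the 57 genes, 51 were lowest in replicate 1 among the UNX libraries, 38 among CO-CM and 34 among PH-CM. The same count was not made over all tested genes, so whether this is particular to the 57 cannot be said. Without replicate 1 of all 3 groups, 49 genes were called higher under CO-CM and 40 under PH-CM, and between the media 5 were called higher and 13 lower. Same-numbered libraries of different groups deviated together. Over the 57 genes, deviations from the group means correlated from 0.091 (replicate 2 of PH-CM and UNX) to 0.762 (replicate 2 of PH-CM and CO-CM). What sets the libraries numbered 1 apart was not tested. The macrophage markers also moved with the groups. Their summed CPM was 10241 to 10498 in UNX, 15483 to 16255 in CO-CM and 19016 to 20229 in PH-CM, with 4 of 8 called higher and 1 lower under CO-CM and 7 higher under PH-CM, and the sum was led by Lyz2, at 0.82 and 1.07. S100a8, the 1 neutrophil marker above the CPM minimum, was called higher at 1.39 and 1.37, while the 10 neutrophil markers summed to 2.34 to 3.64 CPM in UNX, 3.38 to 5.11 in CO-CM and 2.90 to 4.16 in PH-CM. The part of either list in the values of the 57 genes was not tested.

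The proteases spread over a wide range. Of 14, 13 were called higher and 1 lower under CO-CM, with a median log2 fold change of 0.84, and 12 were called higher and 1 lower under PH-CM, with a median of 0.61. Both medians include Ctse, which passed the CPM minimum only through CO-CM, as set out below. Without Ctse the middle values were 0.75 under CO-CM (that of Ctsl) and 0.67 under PH-CM (that of Ctsd). Ctsd, an aspartic protease and the member of highest level per length in UNX at 2255 ± 123 RPKM (SD, n = 3), was read at 4747, 5353 and 5353 CPM in UNX, 11885, 11593 and 11519.6 in CO-CM and 8115, 8129.5 and 8287 in PH-CM (ENSMUSG00000007891, GRCm38 chr7:142375911-142388038, minus strand). All CO-CM libraries lay above all PH-CM libraries and these above all UNX libraries. The log2 fold change against UNX was 1.18 ± 0.06 (SE) under CO-CM and 0.67 ± 0.06 under PH-CM, and between the media it was -0.51 ± 0.06, with FDR 0.000154 by edgeR.

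Ctsl, a broad cysteine endoprotease, was ordered the other way. It was read at 1344, 1438 and 1476 CPM in UNX, 2098, 2433 and 2612 in CO-CM and 4734, 5388 and 5587 in PH-CM (ENSMUSG00000021477, chr13:64359337-64370890, minus strand). The 3 groups did not overlap, and PH-CM was the highest. Ctsl rose by 0.75 ± 0.09 on the log2 scale under CO-CM and by 1.88 ± 0.09 under PH-CM, and was 2.20 times as high under PH-CM as under CO-CM (log2 1.14 ± 0.09, edgeR FDR 7.97e-06). Per exon length, the ratio of Ctsl to Ctsd RPKM was 0.0999 ± 0.00264 (SD, n = 3) in UNX, 0.074 ± 0.00926 in CO-CM and 0.232 ± 0.0179 in PH-CM. Among the 12 cathepsins that passed the CPM minimum, Ctsl held 3.05 ± 0.154% of the summed RPKM in UNX, 2.62 ± 0.227% in CO-CM and 6.77 ± 0.272% in PH-CM. Lgmn, the asparaginyl endopeptidase that trims several cathepsins to their mature forms, was read at 1141, 1374 and 1301 CPM in UNX, 1719, 1808 and 1764 in CO-CM and 2125, 2345 and 2242 in PH-CM. It followed the same order as Ctsl without overlap, with a log2 fold change of 0.47 ± 0.07 under CO-CM, 0.81 ± 0.07 under PH-CM and 0.34 ± 0.07 between the media.

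The largest protease change was that of Ctsh, a cysteine aminopeptidase, under CO-CM, and that of Ctsl under PH-CM. Ctsh was read at 30.0, 34.8 and 34.3 CPM in UNX, 129, 153 and 138 in CO-CM and 104, 121 and 118 in PH-CM (ENSMUSG00000032359, chr9:90054152-90076089, plus strand). Libraries of both media lay far above UNX, with a log2 fold change of 2.08 ± 0.08 under CO-CM and 1.79 ± 0.08 under PH-CM. Ctsh was called lower under PH-CM than under CO-CM, at -0.29 ± 0.08 and an edgeR FDR of 0.0172, and this call was lost without CO-CM replicate 2 or without PH-CM replicate 1. Ctsf, another cysteine cathepsin, was at a low level, with 3.70, 3.86 and 4.09 CPM in UNX, 9.87, 12.1 and 10.9 in CO-CM and 9.42, 11.1 and 10.8 in PH-CM. It rose by 1.50 ± 0.10 and 1.42 ± 0.10 on the log2 scale, and the interval of the difference between the media was -0.29 to 0.14. Ctss, which cuts the invariant chain of MHC class II, was read at 1822, 2327 and 2284 CPM in UNX, 4166, 4958 and 4694 in CO-CM and 4025, 4798 and 4642 in PH-CM. It was called higher under both media, at 1.10 ± 0.11 and 1.07 ± 0.11, with an interval between them of -0.28 to 0.20.

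Ctsz, a cysteine carboxypeptidase, was read at 841, 998 and 1009 CPM in UNX, 1749, 1802 and 1875 in CO-CM and 1365, 1326 and 1438 in PH-CM. Its groups were ordered like those of Ctsd, without overlap, at 0.93 ± 0.07 under CO-CM, 0.54 ± 0.07 under PH-CM and -0.39 ± 0.07 between the media. Ctse, an aspartic protease, stood near the CPM minimum, with 0.647, 0.728 and 0.790 CPM in UNX, 2.09, 2.32 and 2.44 in CO-CM and 0.550, 0.964 and 1.11 in PH-CM. It passed the minimum only through its 3 CO-CM libraries, since 0 UNX libraries and 1 PH-CM library lay above it, so it had to differ, and its higher value against UNX (1.65 ± 0.23) and its lower value under PH-CM (-1.39 ± 0.23) support nothing. Without Ctse, 12 of 13 proteases were called higher and 1 lower under either medium, with 2 higher and 3 lower between the media, and of the 56 other genes 48 were called higher under CO-CM and 41 under PH-CM. Its level under PH-CM overlapped that in UNX. Ctsc, dipeptidyl peptidase I, which activates serine proteases of granules, was the 1 protease called lower. It was read at 331, 252 and 256 CPM in UNX, 140.0, 134 and 138 in CO-CM and 149, 153 and 141 in PH-CM, fell by 1.03 ± 0.09 on the log2 scale under CO-CM and by 0.92 ± 0.09 under PH-CM, and UNX replicate 1 was its highest library.

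Ctsk, a collagen-degrading cysteine protease known from osteoclasts, was read at 13.3, 23.0 and 24.6 CPM in UNX, 32.7, 45.3 and 50.0 in CO-CM and 44.3, 58.3 and 63.1 in PH-CM (ENSMUSG00000028111, chr3:95499256-95509362, plus strand). Replicate 1 was the lowest library of each group. Ctsk rose by 1.07 ± 0.23 on the log2 scale under CO-CM and by 1.44 ± 0.23 under PH-CM. Between the media it was not called, at 0.37 ± 0.22 and an edgeR FDR of 0.216, but with the replicate number as a block the FDR was 0.000605 and it was called higher under PH-CM. Of the 4 remaining proteases, Ctsb rose by 0.66 and 0.40 under CO-CM and PH-CM, Ctsa, a carboxypeptidase that protects 2 glycosidases, by 0.66 and 0.41, Ctso, a little studied cysteine cathepsin, by 0.72 and 0.56, and Tpp1, which removes tripeptides, by 0.56 and 0.45. None of the 4 was called between the media. Ctsb missed the fold change limit there at -0.26 ± 0.08, with FDR 0.0274 by edgeR, and was called with the replicate block, at -0.26 and an FDR of 0.000696.

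**Figure D3:**
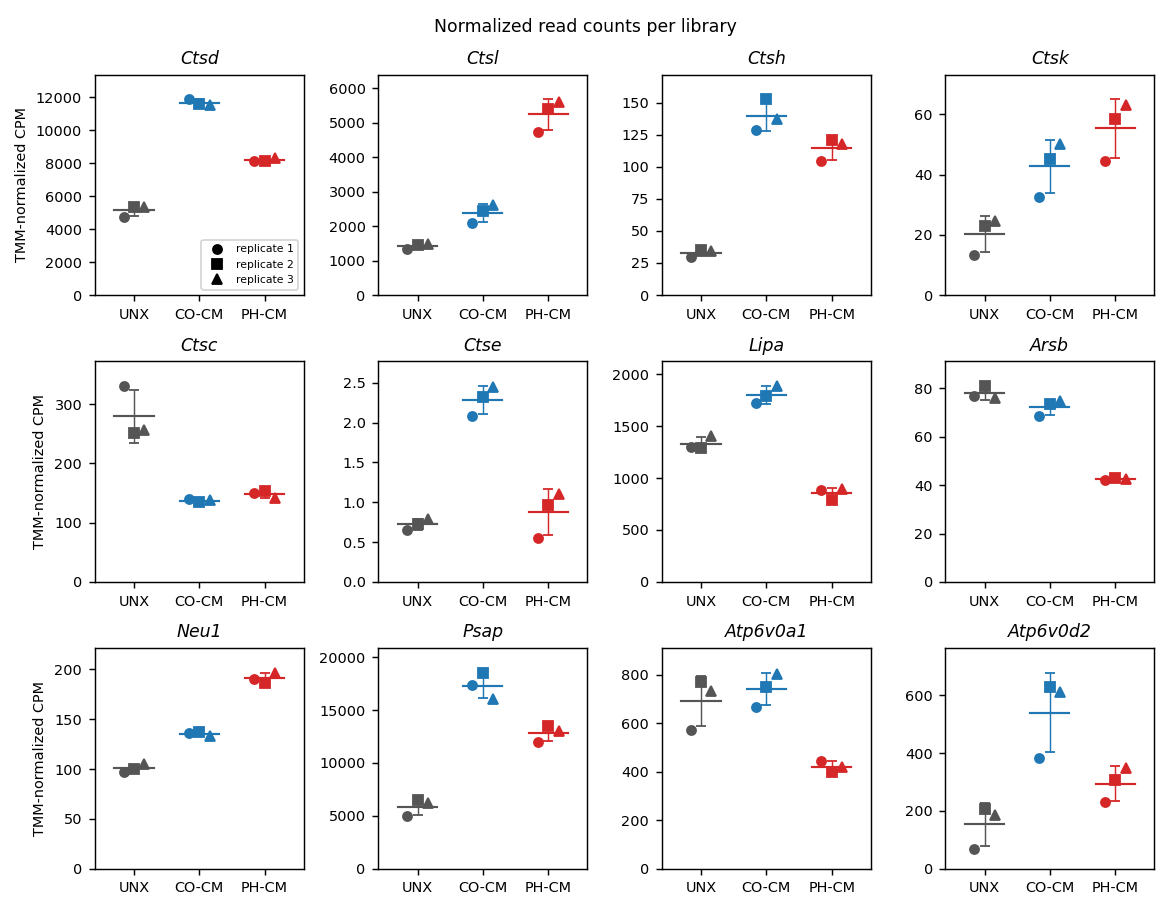
TMM-normalized CPM of 12 genes in each of the 9 libraries, with axes from 0, a line at the group mean and bars of 1 SD (n = 3). Ctsl and Neu1 are highest under PH-CM, Ctsd, Ctsh, Ctse, Lipa, Psap and Atp6v0d2 have their highest mean under CO-CM, Ctsc is highest in UNX, and Arsb and Atp6v0a1 are low under PH-CM and overlap or nearly meet in the other groups.

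All 7 glycosidases were called higher under both media, with a median log2 fold change of 0.81 under CO-CM and 0.79 under PH-CM, and their changes ranged from 0.43 to 0.98 and from 0.59 to 0.93. Hexa, the alpha chain of beta-hexosaminidase and the glycosidase gene of highest RPKM in UNX (375 ± 17.7), was read at 686, 769.7 and 727 CPM in UNX, 1299, 1362 and 1245 in CO-CM and 1073, 1142 and 1081 in PH-CM. Both media lay above UNX, at 0.84 ± 0.06 and 0.59 ± 0.06.

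Between the media, 1 glycosidase was called higher and 1 lower under PH-CM. Neu1, the lysosomal sialidase, was read at 97.2, 99.8 and 105 CPM in UNX, 136, 137 and 133 in CO-CM and 189.9, 187 and 196 in PH-CM (ENSMUSG00000007038, chr17:34931253-34935953, plus strand). Its 3 groups were separate, with log2 fold changes of 0.43 ± 0.04 under CO-CM, 0.93 ± 0.04 under PH-CM and 0.50 ± 0.04 between the media (edgeR FDR 1.18e-05). Gaa, which breaks down glycogen, was read at 127, 145 and 134 CPM in UNX, 272, 271 and 255 in CO-CM and 221, 218 and 213 in PH-CM. It was ordered the other way, at 0.98 ± 0.05 under CO-CM, 0.68 ± 0.05 under PH-CM and -0.29 ± 0.05 between the media. Naglu, an enzyme of heparan sulfate breakdown, was read at 137, 171 and 157 CPM in UNX, 288, 292 and 294 in CO-CM and 259, 270.4 and 274 in PH-CM and rose by 0.91 ± 0.07 and 0.79 ± 0.07 on the log2 scale. Gla, the alpha-galactosidase that carries the motif at 2 places, was read at 170.2, 196 and 198 CPM in UNX, 331, 324 and 331 in CO-CM and 355, 347 and 366 in PH-CM and rose by 0.81 ± 0.06 and 0.92 ± 0.06. Man2b1, the alpha-mannosidase, rose by 0.75 and 0.81, and Glb1, the beta-galactosidase, by 0.50 and 0.60.

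The other hydrolases did not move as a group. Arsb, which removes sulfate from dermatan and chondroitin sulfate, was read at 76.8, 81.0 and 76.0 CPM in UNX, 68.4, 73.3 and 74.6 in CO-CM and 42.2, 43.1 and 42.5 in PH-CM (ENSMUSG00000042082, chr13:93771630-93943016, plus strand). All PH-CM libraries lay below all others. It fell by 0.87 ± 0.05 on the log2 scale under PH-CM (edgeR FDR 7.03e-08) and was at -0.11 ± 0.05 under CO-CM, which was not called. Arsa, the sulfatase of sulfatides, was read at 42.1, 46.6 and 46.7 CPM in UNX, 64.9, 66.5 and 63.9 in CO-CM and 60.9, 64.0 and 60.3 in PH-CM and rose by 0.53 ± 0.05 and 0.45 ± 0.05, with no overlap between either medium and UNX.

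Lipa, the acid lipase that frees cholesterol from cholesteryl esters, was the only gene of the 57 called in opposite directions against UNX. It was read at 1298, 1294 and 1402 CPM in UNX, 1723, 1790.1 and 1888 in CO-CM and 883, 793 and 890.3 in PH-CM (ENSMUSG00000024781, chr19:34492318-34527474, minus strand). The 3 groups did not overlap, with CO-CM the highest and PH-CM the lowest. It rose by 0.44 ± 0.06 on the log2 scale under CO-CM (edgeR FDR 0.000131) and fell by 0.64 ± 0.06 under PH-CM (FDR 6.32e-06), so that CO-CM stood 2.10 times as high as PH-CM. Pla2g15, the lysosomal phospholipase A2, was read at 80.0, 96.3 and 84.9 CPM in UNX, 157, 170.3 and 158 in CO-CM and 113, 116 and 104 in PH-CM and was called higher under both media, at 0.89 ± 0.07 and 0.35 ± 0.07, and lower under PH-CM than under CO-CM, at -0.54 ± 0.07. Asah1, the acid ceramidase, was read at 330.4, 387 and 363 CPM in UNX, 518, 526 and 507 in CO-CM and 536, 547 and 538 in PH-CM and rose under both media, at 0.52 ± 0.06 and 0.59 ± 0.06, with an interval between them of -0.06 to 0.19. Smpd1, the acid sphingomyelinase, was called under CO-CM (0.39) and not under PH-CM (0.21), and Ppt1, a thioesterase that removes palmitate from proteins, was called in no comparison.

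Both acid phosphatases were called higher under both media. Acp2 was read at 146, 158 and 150.5 CPM in UNX, 222, 222 and 209.5 in CO-CM and 266, 284 and 272 in PH-CM, with PH-CM above CO-CM and CO-CM above UNX in every library. Its log2 fold change was 0.53 ± 0.05 under CO-CM, 0.86 ± 0.05 under PH-CM and 0.33 ± 0.05 between the media. Acp5, the tartrate-resistant phosphatase of osteoclasts, stood near the CPM minimum, with 0.878, 0.966 and 1.26 CPM in UNX, 2.00, 3.38 and 3.02 in CO-CM and 2.03, 4.31 and 3.16 in PH-CM, and rose by 1.43 ± 0.29 and 1.60 ± 0.29 on the log2 scale. It passed the minimum through the media, with 3 CO-CM and 3 PH-CM libraries above it and 1 UNX library. Its rise is therefore not read as support, although it is counted among the 49 and 41 genes called higher.

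The activators and lumenal carriers were all called higher under both media. Psap, the precursor of the saposins that present sphingolipids to their hydrolases, was read at 4946, 6456 and 6192 CPM in UNX, 17336, 18505 and 16079 in CO-CM and 11997, 13489 and 12987 in PH-CM. Its groups did not overlap, at 1.56 ± 0.11 under CO-CM, 1.13 ± 0.10 under PH-CM and -0.43 ± 0.10 between the media (edgeR FDR 0.00783). Npc2, which carries cholesterol, rose by 0.69 and 0.81, Gm2a, the activator of ganglioside GM2 breakdown, by 0.71 and 0.98, and Grn, progranulin, by 0.44 and 0.32. Gm2a was not called between the media, at 0.27 ± 0.17 and an edgeR FDR of 0.248, but it was called with the replicate block at an FDR of 0.000522.

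All 7 membrane proteins were called higher under CO-CM and 6 under PH-CM. Between the media edgeR, its exact test and DESeq2 called none, and 2 of the 7, Cd68 and Lamp2, had an unadjusted edgeR p under 0.05. Both also passed the FDR of edgeR, at 0.012 and 0.00718, and missed the fold change limit, at -0.24 ± 0.06 and -0.19 ± 0.04. Cd63, a tetraspanin, was read at 459, 548 and 550.1 CPM in UNX, 989, 1043 and 1085 in CO-CM and 951, 952 and 994 in PH-CM, and both media lay above UNX, at 1.00 ± 0.07 and 0.90 ± 0.07. Cd68, a macrophage glycoprotein and the membrane protein gene of highest RPKM in UNX (1791 ± 109), was read at 2017, 2332 and 2211 CPM in UNX, 2957, 3117 and 3113 in CO-CM and 2526, 2571 and 2672 in PH-CM. It was called under CO-CM (0.49 ± 0.06) and missed the fold change limit under PH-CM (0.24 ± 0.06). Mcoln1, a cation channel, rose by 0.83 and 0.79, Lamp1 and Lamp2, the main glycoproteins of the membrane, by 0.72 and 0.71 and by 0.46 and 0.28, Cln3 by 0.71 and 0.74, and Scarb2, which carries glucocerebrosidase to lysosomes, by 0.70 and 0.67.

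Of the 16 V-ATPase genes under CO-CM, 11 were called higher and 5 were not called, with a median log2 fold change of 0.39, and under PH-CM 7 were called higher, 1 lower and 8 not, with a median of 0.24. Between the media, 3 were called lower under PH-CM and 13 were not called, where 15.0% of all tested genes were called lower. The share of 3 in 16 was near that of all genes. The 41 other genes had medians of 0.71 and 0.67 under CO-CM and PH-CM, with 38 and 34 called higher. The mRNA levels per length ranged in UNX from 172 ± 12.4 RPKM for Atp6v1g1 to 1.19 ± 0.131 for Atp6v1g2, which are alternative genes of the G subunit.

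In the V0 sector, the a1 and a3 forms of the a subunit differed in direction under PH-CM. Atp6v0a1, which encodes the a1 form of the large membrane subunit, was read at 573, 769 and 732 CPM in UNX, 669, 751 and 803 in CO-CM and 445, 398 and 419 in PH-CM (ENSMUSG00000019302, chr11:101009452-101063719, plus strand). UNX and CO-CM overlapped, and all PH-CM libraries lay below both. It fell by 0.72 ± 0.11 on the log2 scale under PH-CM (edgeR FDR 0.00012) and stood at 0.10 ± 0.11 under CO-CM, which was not called. Tcirg1 encodes the a3 form, known from osteoclasts and lysosomes, under a symbol outside the 57 genes, and was read at 490.3, 563 and 587 CPM in UNX, 855, 959 and 979 in CO-CM and 762, 796 and 838 in PH-CM. It was called higher under both media, at 0.77 ± 0.08 and 0.55 ± 0.08. Per exon length, Atp6v0a1 held 44.6 ± 2.07% (SD, n = 3) of the summed RPKM of Atp6v0a1, Atp6v0a2 and Tcirg1 in UNX, 34.3 ± 0.671% in CO-CM and 25.5 ± 1.66% in PH-CM, without overlap. Tcirg1 held 51.9 ± 1.66%, 63.2 ± 0.502% and 70.9 ± 1.84%. Atp6v0a2 was called in no comparison and held 2.27 to 4.10% in every library.

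Atp6v0d2, the d form known from osteoclasts and macrophages, was read at 69.5, 207 and 186 CPM in UNX, 382, 628 and 612 in CO-CM and 230.3, 308 and 347 in PH-CM (ENSMUSG00000028238, chr4:19876841-19922605, minus strand). UNX replicate 1 was the lowest library and lay well below the other UNX libraries, and CO-CM lay above PH-CM in every library. It rose by 1.81 ± 0.35 on the log2 scale under CO-CM. Under PH-CM it rose by 0.93 ± 0.35, with an edgeR FDR of 0.0305, and this call was lost without PH-CM replicate 2 (FDR 0.0678) or without PH-CM replicate 3 (FDR 0.0925). Between the media it was not called, at -0.87 ± 0.34 with FDR 0.0698, and was called with the replicate block, at -0.85 with FDR 0.00113. Without replicate 1 of all 3 groups it was also called between the media, at -0.91 with FDR 1.64e-05. The common form Atp6v0d1 was called higher under CO-CM (0.39) and not under PH-CM (0.23), and of the summed RPKM of both d forms Atp6v0d2 held 31.1 ± 10.6% in UNX, 55.7 ± 6.73% in CO-CM and 43.8 ± 4.35% in PH-CM.

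**Figure D4:**
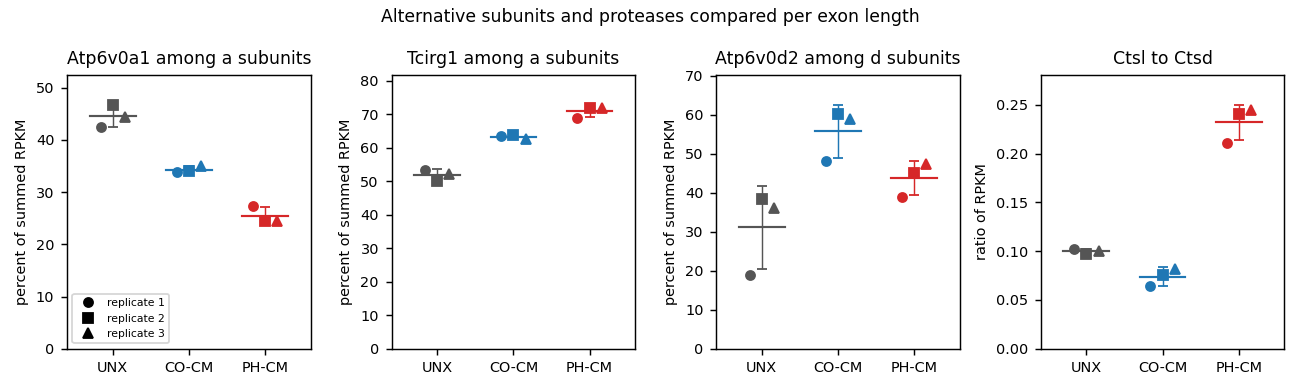
Per-library shares of summed RPKM held by Atp6v0a1 and Tcirg1 among 3 a subunit genes and by Atp6v0d2 among both d subunit genes, and the ratio of Ctsl to Ctsd RPKM, with lines at group means and bars of 1 SD (n = 3). Atp6v0a1 goes down and Tcirg1 up from UNX to CO-CM to PH-CM, Atp6v0d2 is highest under CO-CM, and the ratio of Ctsl to Ctsd is highest under PH-CM.

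Ctsk, Acp5, Tcirg1 and Atp6v0d2 are also known as osteoclast genes, so the osteoclast markers were read beside them. Of 7 markers, Nfatc1, Mmp9 and Itgb3 passed the CPM minimum, Calcr was at 0 reads in all libraries, and Ocstamp and Oscar had at most 12 reads in any. The fusion gene Dcstamp had 59 to 159 reads in UNX, 13 to 56 in CO-CM and 16 to 22 in PH-CM. The summed level of the 7 markers was 90.7 to 101 CPM in UNX, 158 to 163 in CO-CM and 128 to 138 in PH-CM, with most of it from Nfatc1 and Itgb3. Itgb3, an integrin chain, rose by 2.15 on the log2 scale under CO-CM and by 0.47 under PH-CM, and the factor Nfatc1 by 0.42 and 0.54. The protease Mmp9 was called lower under PH-CM (-0.48 ± 0.19) and not called under CO-CM (-0.36 ± 0.18). The part of such cells in the values above was not tested. Ctsk is also a fibroblast gene, and the summed level of 9 fibroblast markers was 204 to 258 CPM in UNX, 265 to 317 in CO-CM and 255 to 333 in PH-CM. Of the 7 that passed the CPM minimum, 3 were called higher and 0 lower under CO-CM, and 4 and 0 under PH-CM. Among all tested genes 28.0% and 31.3% were called higher. The part of fibroblasts was not tested either.

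In the remaining V0 genes, Atp6v0c, the main chain of the proton-carrying ring, rose by 0.55 under CO-CM and 0.56 under PH-CM, and Atp6v0b, another ring subunit, by 0.27 and 0.40. Atp6v0e, a small membrane subunit, was called under CO-CM (0.36) and not under PH-CM (0.20). In V1, Atp6v1a, the catalytic A subunit, was read at 652, 733 and 721 CPM in UNX, 1068, 1054 and 1051 in CO-CM and 1024, 978 and 1001 in PH-CM, and both media lay above UNX, at 0.59 ± 0.05 and 0.51 ± 0.05. Atp6v1b2, its nucleotide-binding partner B2, was read at 387, 436 and 450.5 CPM in UNX, 562, 615 and 644 in CO-CM and 447, 446 and 453 in PH-CM. It was called higher under CO-CM (0.52 ± 0.07), overlapped UNX under PH-CM (0.08 ± 0.07), and was called lower under PH-CM than under CO-CM (-0.44 ± 0.07, edgeR FDR 0.00058).

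Atp6v1c1, the C subunit that joins the sectors, was read at 233, 257 and 263 CPM in UNX, 345, 351 and 364 in CO-CM and 292, 283 and 292 in PH-CM. It was called higher under CO-CM (0.49 ± 0.05), missed the fold change limit under PH-CM (0.20 ± 0.05), and was called lower under PH-CM than under CO-CM (-0.29 ± 0.05). Atp6v1d, the D subunit of the central stalk, was read at 100.2, 119 and 117 CPM in UNX, 150.0, 153 and 165 in CO-CM and 173, 162 and 169 in PH-CM and rose by 0.48 ± 0.07 and 0.58 ± 0.07 on the log2 scale. Atp6v1g2, a low G form whose exons overlap those of Nfkbil1 on the other strand, was read at 2.56, 3.25 and 2.88 CPM in UNX, 4.35, 5.89 and 4.83 in CO-CM and 5.79, 5.71 and 5.23 in PH-CM and rose by 0.79 ± 0.14 and 0.94 ± 0.14. Its counts may be affected by that overlap. The main G form Atp6v1g1 was read at 172, 196 and 203 CPM in UNX, 225, 213 and 239 in CO-CM and 209.9, 190.1 and 208 in PH-CM and was not called, at 0.24 ± 0.07 and 0.09 ± 0.07. Atp6v1f, of the stalk, was called higher under both media (0.38 and 0.32), and Atp6v1e1 and the regulatory subunit Atp6v1h were called in no comparison, with 0.26 and 0.25 for the first and -0.16 and -0.19 for the second.

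Between the media, 41 of the 57 genes were not called. Of these, 9 passed the FDR of edgeR and missed only the fold change limit, with Atp6v0a2 and Atp6v0b higher and Hexa, Smpd1, Cd68, Lamp2, Ctsa, Ctsb and Atp6v0d1 lower under PH-CM. The 4 called higher under PH-CM were Ctsl, Lgmn, Neu1 and Acp2. The 12 called lower were the proteases Ctsd, Ctsz, Ctsh and Ctse, the glycosidase Gaa, the sulfatase Arsb, the lipid hydrolases Lipa and Pla2g15, the activator precursor Psap and the V-ATPase genes Atp6v0a1, Atp6v1b2 and Atp6v1c1. With the replicate number as a block, Gm2a and Ctsk were also called higher, and Ctsb and Atp6v0d2 lower, under PH-CM. The median log2 fold change of all 57 was -0.076, against -0.0064 over all genes tested. By role the summed level under PH-CM was 0.901 of that under CO-CM for proteases, 0.958 for glycosidases and 0.827 for V-ATPase genes.

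**Figure D5:**
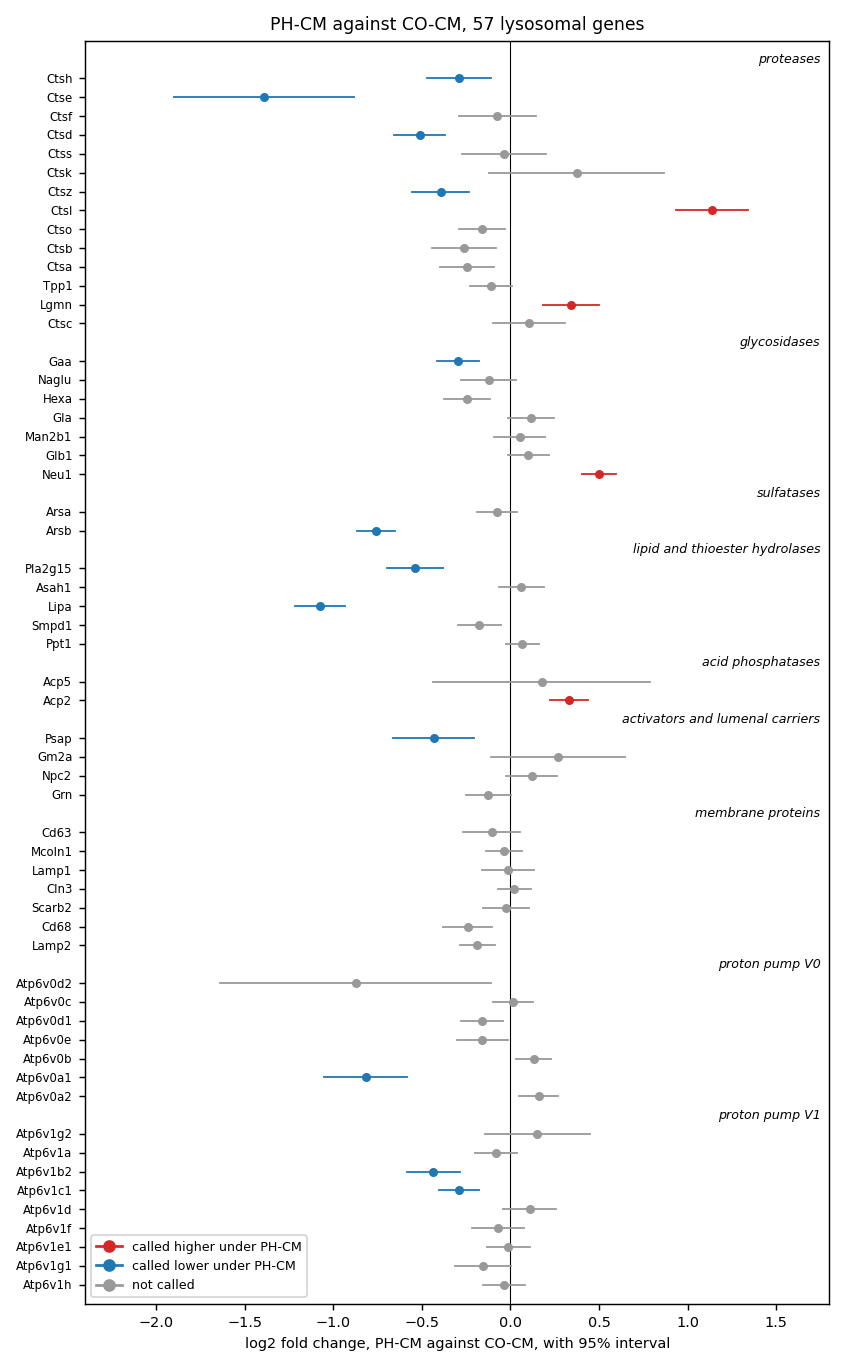
Difference between the media for the 57 genes (log2, PH-CM minus CO-CM) by role, with 95% intervals from the edgeR fit, in red where called higher and blue where called lower under PH-CM. 41 genes are not called, Ctsl is the highest point, Ctse and Lipa are the lowest, and Ctse, Atp6v0d2 and Acp5 have the widest intervals.

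Other genes of the lysosome were read from lists beyond the 57 genes, whose counts stand beside the 28.0% of all tested genes called higher and 28.9% called lower under CO-CM, and 31.3% and 31.7% under PH-CM. Between the media 12.2% of all tested genes were called higher and 15.0% lower. Of 28 other lysosomal hydrolases tested, 17 were called higher and 11 not called under CO-CM, 17 higher and 2 lower under PH-CM, and 3 each way between the media. Smpdl3a, a phosphodiesterase, rose most under CO-CM (1.25), and Sgsh, the heparan N-sulfatase, most under PH-CM (1.33). Of 26 other membrane and transport proteins, 19 were called higher and 1 lower under CO-CM, and 18 and 1 under PH-CM, with Sidt2 at 1.21 and 1.71. Of 13 other genes of the pump, made up of Tcirg1 and accessory and assembly genes, 6 were called higher and 3 lower under CO-CM, and 5 and 2 under PH-CM. Atp6ap1, an accessory subunit, rose by 0.41 and 0.52, Atp6ap2 was not called, Dmxl2, which helps join V1 to V0, rose by 2.21 and 2.73, and Vma21, an assembly chaperone of V0, was called lower at -0.83 and -1.57.

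Of 16 genes of mannose 6-phosphate tagging and sorting, which bring hydrolases to the lysosome, 4 were called higher and 1 lower under CO-CM and 5 and 2 under PH-CM. The shares called higher were near those of all genes tested. The sorting receptor Sort1 was at 1.51 and 0.73. Of 8 cystatins, inhibitors of cysteine cathepsins, Cst3 and Cstb passed the CPM minimum. Cst3 was called higher under both media, at 0.66 and 0.44, and Cstb under CO-CM (0.55) and not under PH-CM (0.21). The MiT/TFE factors that read the palindrome went different ways. Tfeb was read at 41.6, 48.8 and 52.2 CPM in UNX, 84.0, 98.9 and 99.4 in CO-CM and 53.8, 56.7 and 56.5 in PH-CM and was called higher under CO-CM (0.98 ± 0.09) and not under PH-CM (0.23 ± 0.09). Mitf was called higher under CO-CM (0.43 ± 0.09) and lower under PH-CM (-0.36 ± 0.09), Tfec lower under CO-CM (-0.32 ± 0.08) and higher under PH-CM (0.27 ± 0.08), and Tfe3 was called higher under PH-CM (0.29 ± 0.04) and not under CO-CM (0.14 ± 0.04).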

How the data were processed

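RNA was sequenced as paired 150-base reads from 9 libraries, assigned to UNX, CO-CM or PH-CM and to a replicate number from their titles. The authors trimmed the reads, used STAR to align them to GRCm38 and featureCounts 1.6.2 to count them on exons, and deposited raw counts per gene without normalization. The authors also deposited RPKM, which are these counts divided by exon length and library total, used here only to compare levels between genes. Their comparison tables, with log2 fold changes, mean log2 CPM, p-values and FDR, were not used. Among counts under 20, 81.4 to 83.8% per library were even, and no option for read pairs is listed, so mates were counted singly, which makes counting error larger than the totals imply. The featureCounts options listed in the methods name none for strand or for reads over exons of several genes. By default reads of both strands are counted, and a read over exons of several genes is assigned to none of them. Exon overlaps on either strand can thus lose reads, as for Acp2, Glb1, Hexa, Ppt1, Cln3, Lamp1, Ctsa, Ctsb, Ctsz and Atp6v1g2, which overlap an expressed gene.

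TMM factors were computed on genes above 1 CPM in 3 libraries or more, which were fitted with edgeR 4.0.16 in R 4.3.3 (quasi-likelihood test, all 9 libraries, one mean per group). P-values were adjusted by Benjamini-Hochberg over all 11950 of these, and the code was tested on simulated data. The members and lists were chosen with earlier results of these data known, so no list was tested as a set. Values per library are given for the called proteases and V-ATPase genes (3 per comparison and direction), glycosidases (2) and other roles (1) of largest change, the gene of highest RPKM in UNX per role, genes called in opposite directions, and Ctss. Replicates of a group differed by more than sampling noise. Deviations from the group means correlated between same-numbered libraries (r over all genes 0.276 to 0.484 in 9 pairs), so a number was read as a pairing, although no source ties it to a repeat, and a fit with the number as a block is an alternative. Other alternatives were the edgeR exact test, DESeq2 1.42.0, other scalings, filters and fold change limits, fits of only the groups compared, and each library left out. Promoter windows come from RefSeq GRCm38.p6 and gene positions from GENCODE M21 on GRCm38.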

Additional observations from a re-analysis of the deposited data

How the results depend on the processing

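Across all alternatives other than the fold change limit, including each library left out, 48 to 51 genes were called higher under CO-CM, 38 to 43 under PH-CM, and 4 to 6 higher and 11 to 16 lower between the media. The number of glycosidases called lower between the media, 1 in the report, was 2 with upper-quartile factors and ranged from 1 to 2 with a library left out. The calls depend most on the fold change limit of 1.2. Without it, 2 genes were called lower under CO-CM, 1 of them a V-ATPase gene, 12 V-ATPase genes were called higher and 2 lower under PH-CM, and between the media 19 genes were called lower, 2 of them glycosidases, and 2 V-ATPase genes higher. At a limit of 2, 10 genes were higher under CO-CM (6 proteases, 0 glycosidases, 1 V-ATPase gene), 7 higher under PH-CM (5 proteases, 0 glycosidases, 0 V-ATPase genes) and 0 lower, and between the media 1 higher (a protease) and 2 lower (1 protease, Ctse, 0 glycosidases, 0 V-ATPase genes). The fit with the replicate block changed the calls of Gm2a, Ctsb, Ctsk and Atp6v0d2 between the media, at log2 fold changes of 0.27, -0.26, 0.38 and -0.85, and no other call of the 57 genes. With library size alone the calls of Atp6v0b under CO-CM and of Lamp2, Grn and Atp6v1f under PH-CM were lost, and those of Atp6v0b and Lamp2 also with no filter and with filterByExpr. Between the media Atp6v0d2 was called with the exact test, with no filter and with only the 2 groups compared, Ctsk with no filter, and Ctsb with DESeq2, its size factors, no filter and filterByExpr. DESeq2 and its size factors, and the fit of only the 2 groups compared, added Atp6v1e1 under CO-CM. Upper-quartile factors added Atp6v1e1 under both media, Atp6v1g1 under CO-CM, Cd68 under PH-CM, and Cd68, Ctsa, Ctsb and Hexa between the media. With 1 library left out, single calls near the limits were lost: Atp6v0b under CO-CM without UNX replicate 1 or 2 or CO-CM replicate 2 or 3, Lamp2, Grn and Atp6v1f under PH-CM without UNX replicate 1, Atp6v0d2 under PH-CM without PH-CM replicate 2 or 3, and Ctsh between the media without CO-CM replicate 2 or PH-CM replicate 1. Calls were gained for Atp6v1e1 under CO-CM without UNX replicate 3 or CO-CM replicate 1 or 2 and under PH-CM without UNX replicate 3 or PH-CM replicate 2, Atp6v1g1 under CO-CM without UNX replicate 3 or CO-CM replicate 2, Cd68 and Ctse under PH-CM without UNX replicate 2 and PH-CM replicate 1, respectively, and between the media for Atp6v0d2, Cd68, Ctsa and Ctsb without CO-CM replicate 1 and Hexa without CO-CM replicate 3 or PH-CM replicate 2.

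Signs turned in 14 comparisons of a gene, none of them called. With library size alone Ppt1 was at -0.043 under CO-CM, and Lamp1 at 5.64e-05 and Atp6v1e1 at 0.0015 between the media. Ppt1 under CO-CM was at -0.013 with no filter and -0.0053 with filterByExpr. With upper-quartile factors Cln3 was at -0.015 and Atp6v0c at -0.023 between the media, and Atp6v0a2 at 0.047 under CO-CM. Without replicate 1 of all 3 groups, an alternative chosen after seeing the data, Atp6v1g1 was at -0.0073 under PH-CM. With a library left out, values between the media ranged for Acp5 from -0.107 to 0.424, Lamp1 from -0.036 to 0.021, Mcoln1 from -0.058 to 0.00591, Scarb2 from -0.062 to 0.037, Ctsf from -0.145 to 0.00388, Ctss from -0.105 to 0.044, Atp6v0c from -0.0056 to 0.033, Atp6v1e1 from -0.050 to 0.033 and for Atp6v1h from -0.070 to 0.00121. With a library left out, values under CO-CM ranged for Ppt1 from -0.015 to 0.037, Atp6v0a1 from -0.034 to 0.170 and for Atp6v0a2 from -0.054 to 0.00206. Why these values moved was not tested. With 3 libraries a group, genes near the fold change limit or near 1 CPM, such as Ctse and Acp5, are the least certain.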
